A study of Mus musculus with 10 samples.

Results

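A set of 42 genes of the cornified envelope and of desquamation was examined in RNA from sorted skin innate lymphoid cells. Members were taken by symbol, through the Ensembl gene IDs of the deposited tables, and all 42 had a row among the 47643 IDs of each table. The genes fell into 8 groups by role: 7 envelope precursors, 6 late cornified envelope genes, 3 small proline-rich genes, 6 genes of the filaggrin family and its processing, 3 transglutaminases, 4 corneodesmosome genes, 6 desquamation proteases or inhibitors, and 7 other genes of late keratinocyte differentiation. Innate lymphoid cells (ILCs) are lymphocytes that carry no rearranged antigen receptor. The 10 libraries came from skin of adult B6 mice, with no treatment or genetic change named in the labels. They held ILCs of the epidermis (epidermal, 3 libraries), ILCs of the dermis sorted for the chemokine receptor CCR6 (dermal CCR6+, 2) or for the surface protein Sca1 (dermal Sca1+, 2), and ILCs of the layer under the dermis (subcutaneous, 3). The labels name no gate beyond these markers. They also leave unsaid whether each replicate is its own animal, so the p-values rest on a spread between libraries that could be technical.

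The cornified envelope is the protein and lipid shell that replaces the plasma membrane of keratinocytes as they die at the skin surface. Transglutaminases cross-link precursors such as loricrin, involucrin and the small proline-rich proteins into it, filaggrin packs the keratin filaments inside, and corneodesmosomes hold the dead cells together. Desquamation is the shedding of these cells, in which kallikrein proteases cut the corneodesmosomes under the control of inhibitors such as LEKTI, the product of Spink5. The genes are known from the granular layer of the epidermis, which is made of keratinocytes and not of lymphocytes.

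The libraries held 11627222 to 18118544 expected counts each, over 15013 to 19435 genes with a count. All levels below are deposited TPM, a measure of transcript abundance scaled for gene length and library. All 10 marker genes of ILCs were above 0 in every library, and their summed level was 4837 to 6607 TPM in epidermal, 8524 to 9618 in dermal CCR6+, 10263 to 10318 in dermal Sca1+ and 7702 to 8727 TPM in subcutaneous libraries. The 9 markers of dendritic epidermal T cells, CD3 and T cell receptor genes among them, summed to 1283 to 1687.5, 1860 to 2101, 983 to 1042.5 and 477 to 861 TPM in the same order. Whether T cells were in the libraries was not tested. Keratinocyte markers were present as well. The 7 suprabasal markers (keratins of the differentiating layers and Sfn) summed to 1352 to 2195 TPM in epidermal, 236 to 253 in dermal CCR6+, 178 to 219 in dermal Sca1+ and 65.2 to 165 TPM in subcutaneous libraries. Among them Krt2 was at or near 0 everywhere, at no more than 0.54 TPM. The 10 basal markers summed to 1203 to 2665, 831 to 1322, 1299 to 1453 and 55.4 to 101 TPM in the same order. The part of keratinocyte RNA in the results was not tested.

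The set as a whole was highest in the epidermal libraries. Its summed level was 4654, 22204 and 21294 TPM in epidermal replicates 1 to 3, against 1267 and 1465 TPM in dermal CCR6+, 1173 and 1215 TPM in dermal Sca1+, and 172, 132 and 179 TPM in subcutaneous replicates. All epidermal libraries were above all dermal ones, and all dermal ones above all subcutaneous ones. The share of the whole TPM was 0.465% to 2.22% in epidermal, 0.117% to 0.146% in dermal and 0.0132% to 0.0179% in subcutaneous libraries. In bulk RNA, fewer cells of a type and less RNA per cell cannot be told apart. Krtdap alone gave 56.3% to 66.0% of the set's epidermal TPM and 32.6% to 52.3% of its dermal TPM. Relative to the suprabasal markers, the set's sum was 3.44, 10.1 and 12.3 times theirs in epidermal, 5.36 to 6.81 times in dermal and 1.04 to 2.35 times in subcutaneous libraries. A few genes made up the subcutaneous ratio: Klk8 gave 88.5, 101 and 159 TPM of the set's sum there, and Sfn and Krt80 nearly all of the suprabasal sum, with Krt1 and Krt10 under 2 TPM.

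**Figure D1:**
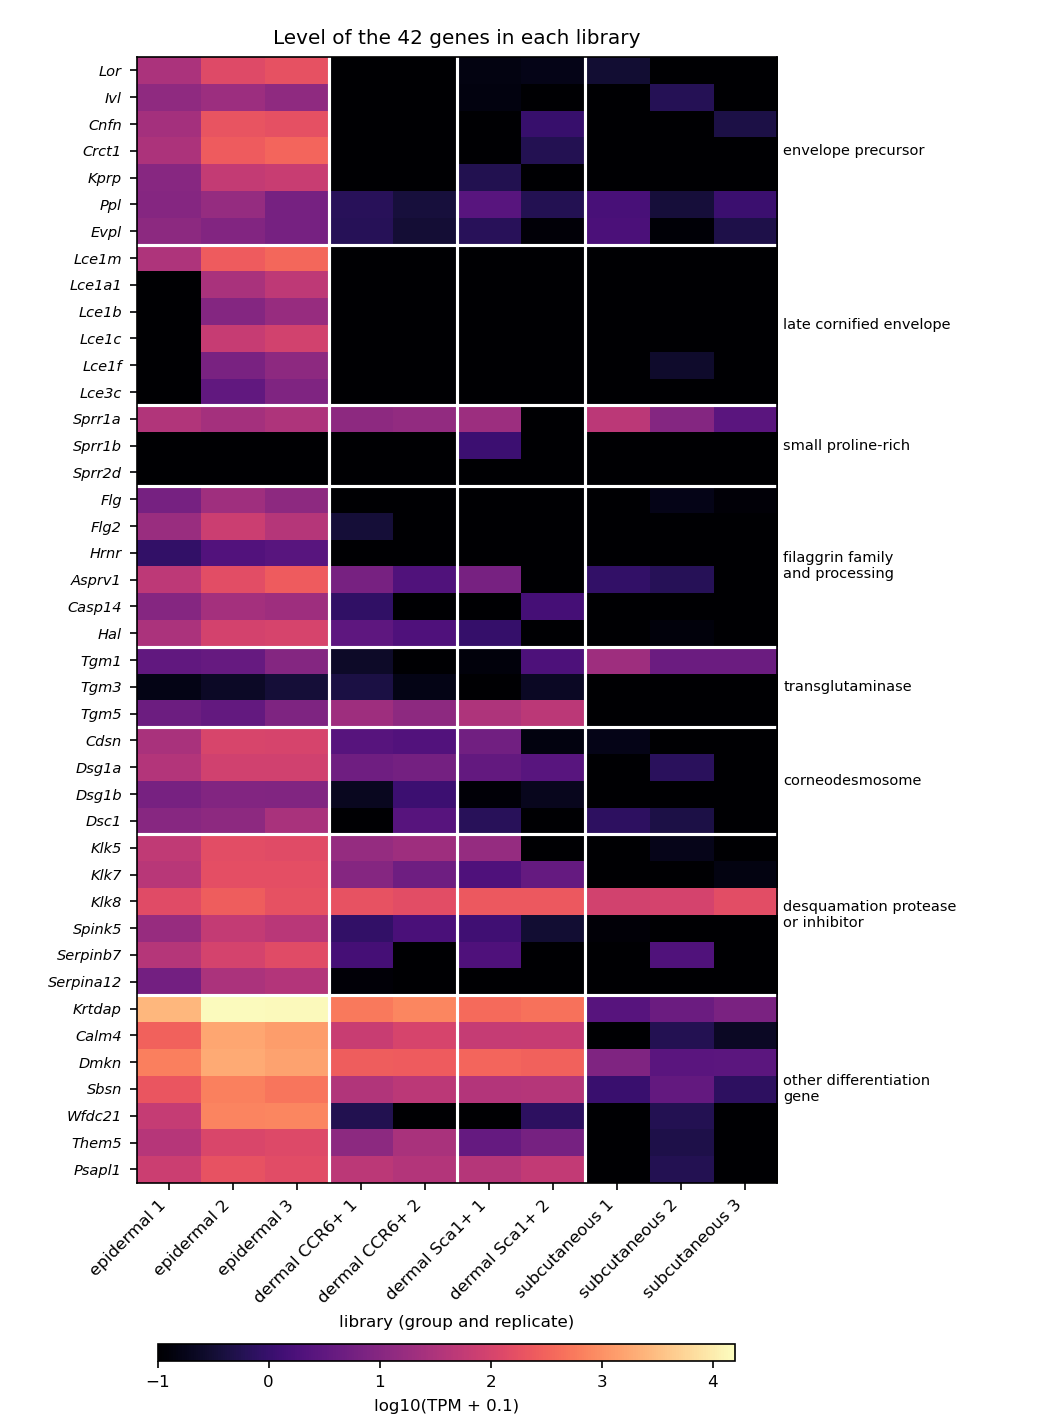
Level of each of the 42 genes (rows, by role) in each of the 10 libraries (columns), as log10(TPM + 0.1). The epidermal columns are the brightest by group mean for 36 genes, although 5 late cornified envelope genes are at 0 in epidermal replicate 1. Klk8 is filled in all columns, Tgm5 is brightest in the dermal columns and Sprr2d is at 0 throughout.

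Of the 42 genes, 36 had their highest group mean in epidermal libraries. The exceptions were Tgm1, Tgm3, Tgm5, Klk8 and Sprr1b, each highest in another group, and Sprr2d, which had no count in any library. The number of genes listed at 0 was 7, 2 and 2 in epidermal, 16 and 21 in dermal CCR6+, 16 and 20 in dermal Sca1+ and 29, 21 and 30 in subcutaneous libraries. A filter on low counts left 40 genes for testing, without Sprr1b and Sprr2d. Many of the 40 passed it through the epidermal libraries alone, so counts and medians over them describe the set and support nothing further.

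Differences were tested with edgeR's quasi-likelihood test on rounded expected counts in 1 model of the 4 groups over 16208 genes, and a gene was called at a Benjamini-Hochberg adjusted p under 0.05. Against subcutaneous libraries, 31 of the 42 genes were called higher in epidermal libraries, beside 6.87% of all tested genes. None was called lower by edgeR, beside 13.3% of all tested genes, and none reached an unadjusted p under 0.05 in that direction or was called lower by DESeq2 or limma. The median log2 fold change was 8.36 over the 40 tested genes, against -0.02 over all tested genes, for which 14 genes without a subcutaneous count were set to the lowest fold that 3 counts in that group would give. The fitted median was 10.21. Leaving out each library in turn kept 28 of the 31 calls. Lce1c, Flg and Dsc1 lost theirs, with adjusted p of up to 0.104, 0.0563 and 0.125. Lce1c lost it without any 1 of the subcutaneous libraries, Flg without epidermal replicate 2 or subcutaneous replicate 3, and Dsc1 without epidermal replicate 2 or 3 or any 1 subcutaneous library.

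Against dermal CCR6+ libraries, 21 genes were called higher in epidermal libraries, beside 0.987% of all tested genes. None was called lower by edgeR, beside 5.19%, with 1 at an unadjusted p under 0.05 (Tgm5), which DESeq2 called lower and limma did not call. The median log2 fold change with genes at their bound was 4.82, against 0.00 over all tested genes. Without dermal CCR6+ replicate 1 the calls numbered 10, and without replicate 2 they numbered 11. All genes called higher numbered 175 and 59 in these refits, against 160 with all libraries. The calls of 8 genes (Lor, Cnfn, Crct1, Kprp, Flg2, Serpina12, Sbsn and Wfdc21) held with every library left out in turn, while the other 13 lost theirs at least once, with highest adjusted p between 0.0563 and 0.196.

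Against dermal Sca1+ libraries, 23 genes were called higher in epidermal libraries, beside 2.75% of all tested genes, and 1 gene, Tgm5, lower, beside 8.66%. The median with genes at their bound was 5.12, against 0.00 over all tested genes. Without dermal Sca1+ replicate 2 the calls of higher members numbered 15, and those over all genes 261, against 445 with all libraries. Over all left-out libraries, 12 of the 24 calls held, those of Lor, Cnfn, Lce1m, Flg2, Hrnr, Hal, Tgm5, Klk7, Spink5, Serpina12, Sbsn and Wfdc21. The comparisons share the epidermal libraries, and their counts are given side by side only.

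Between the dermal groups, edgeR called no gene higher in CCR6+ than in Sca1+ libraries, beside 0.296% of all tested genes, and none lower, beside 0.346%. At an unadjusted p under 0.05 there were 2 higher and 1 lower, and DESeq2 and limma called none in either direction. Without any filter on low counts beyond 1 count, the same edgeR test called 2 higher and 3 lower. It called 264 of all genes higher and 383 lower there, against 48 and 56 with the filter. Against subcutaneous libraries, 13 genes were higher in dermal CCR6+ libraries, beside 3.75% of all tested genes, and 1 gene, Tgm1, lower, beside 3.71%. In dermal Sca1+ libraries 9 genes were higher than in subcutaneous ones, beside 1.21%. None was lower by edgeR, beside 0.993%, with 1 at an unadjusted p under 0.05 (Tgm1) and none by DESeq2 or limma. With libraries left out in turn, 9 of the 14 CCR6+ calls and 6 of the 9 Sca1+ calls held. Tgm5, Krtdap, Calm4, Dmkn, Sbsn and Psapl1 were among both.

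**Figure D2:**
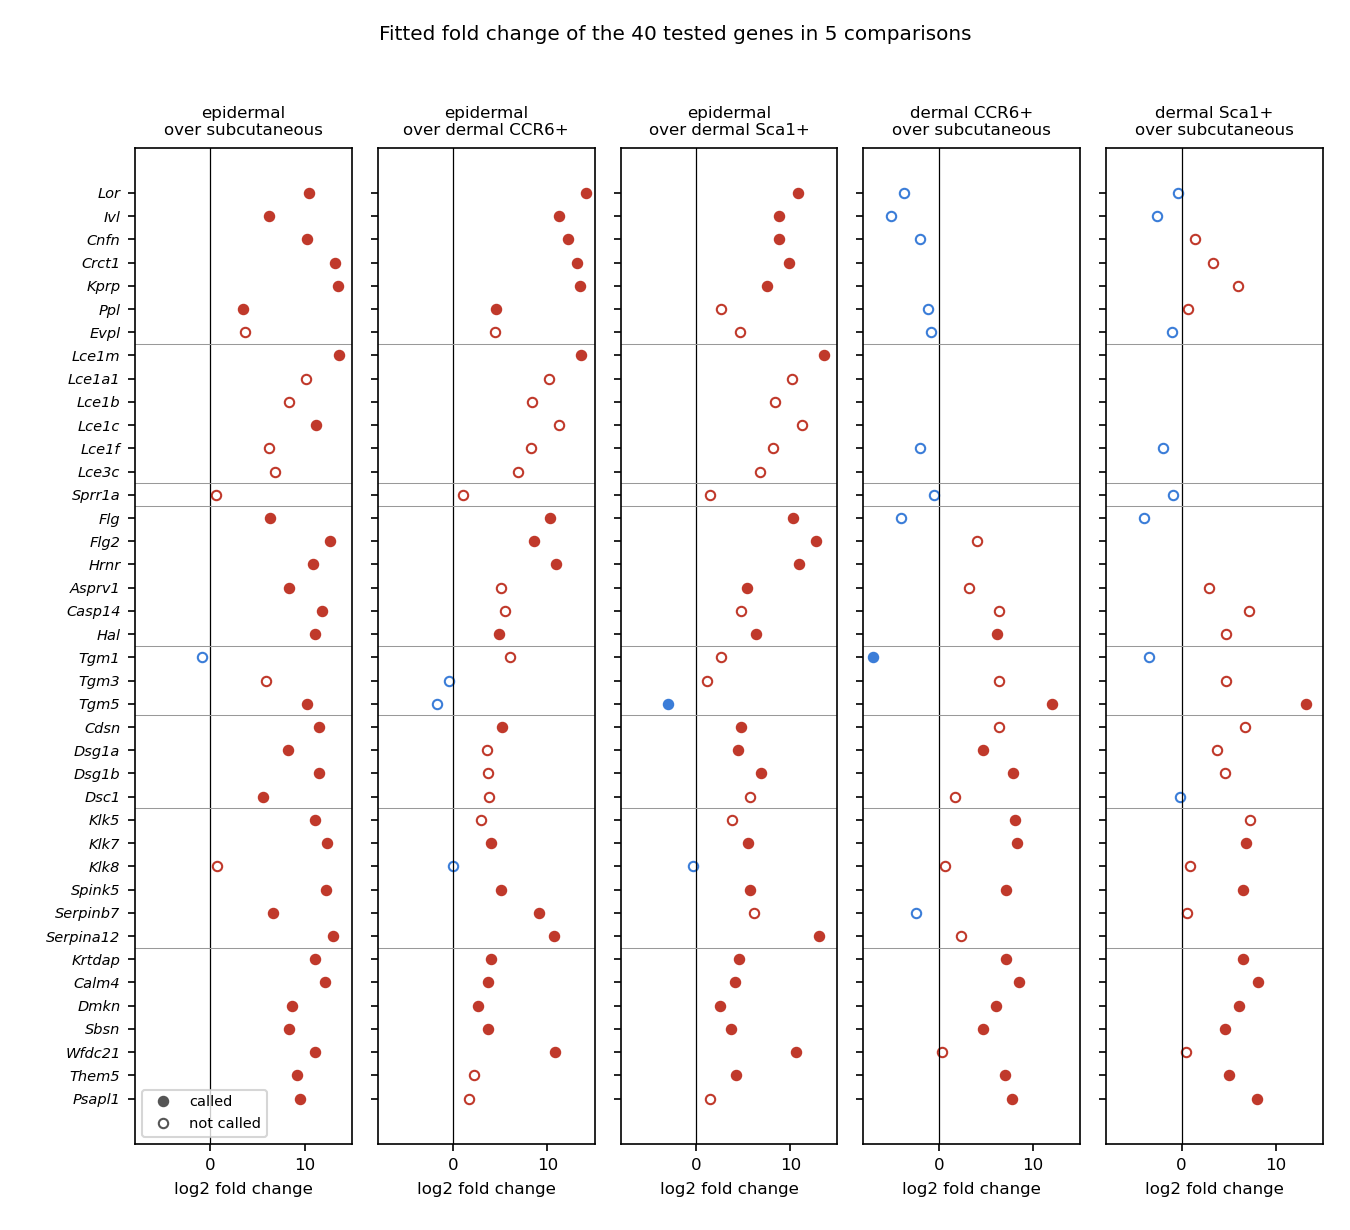
Fitted log2 fold change (x) of the 40 tested genes (rows, in order of role) in 5 of the 6 comparisons, with the group on top of the fold first in each panel title. Filled points are called at an adjusted p under 0.05, open points are not, and a gene with no count in both groups has no point. Fitted values of genes with no count in the lower group depend on the prior count of the fit. Most points of the first 3 panels lie right of 0, and Tgm5 is the filled point left of 0 in the third.

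Envelope precursors form the bulk of the shell. Lor (loricrin, a main envelope protein; ENSMUSG00000043165.7, chr3:92080271-92083142, mm10, minus strand) stood at 28.7, 139 and 184 TPM in epidermal libraries, against 0 and 0 in dermal CCR6+, 0.05 and 0.07 in dermal Sca1+ and 0.22, 0 and 0 TPM in subcutaneous libraries. Crct1, a gene of the same chromosome 3 region, stood at 31.0, 251 and 336 TPM in epidermal libraries, at 0.49 TPM in dermal Sca1+ replicate 2, and at 0 in all others. Cnfn (cornifelin, an envelope component) stood at 24.7, 204 and 173 TPM in epidermal libraries, against 0 and 0 in dermal CCR6+, 0 and 0.89 in dermal Sca1+ and 0, 0 and 0.35 TPM in subcutaneous libraries. All 3 genes were far above every other library in all epidermal libraries, and lowest among these in replicate 1. Lor was 10.48 ± 1.11 higher on the log2 scale (SE, edgeR adjusted p = 0.000186) in epidermal than in subcutaneous libraries, and at least 1508-fold higher than in dermal CCR6+ libraries, which had no count. Crct1 was at least 1053-fold higher in epidermal than in subcutaneous libraries. Less abundant precursors showed the same split between epidermal and other libraries. Kprp (keratinocyte proline-rich protein) averaged 45.9 ± 31.0 TPM in epidermal libraries (SD, n = 3) and reached no more than 0.44 TPM elsewhere. Ivl (involucrin, an early scaffold protein of the envelope) averaged 15.1 ± 3.19 TPM in epidermal libraries and reached no more than 0.5 TPM elsewhere. The plakins Ppl and Evpl, which tie the envelope to desmosomes and keratin, were less restricted. Ppl averaged 10.6 ± 4.85 TPM in epidermal libraries and 0.923 ± 0.629 TPM in subcutaneous libraries. Evpl, at 9.0 ± 2.86 and 0.683 ± 0.866 TPM in these groups, was not called (edgeR adjusted p = 0.064), although all epidermal libraries lay above all others.

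Late cornified envelope proteins are small cysteine-rich proteins added late to the shell. All 6 genes were listed at 0 in all 4 dermal libraries, and only Lce1f had a subcutaneous count, of 1. Lce1m stood at 32.3, 252 and 344 TPM in epidermal libraries and at 0 in all others. Lce1c stood at 0, 64.5 and 91.8 TPM in epidermal libraries and at 0 in all others. Lce1a1 stood at 0, 27.7 and 52.4 TPM in epidermal libraries and at 0 in all others. Epidermal replicate 1 thus overlapped the other groups for 5 of the 6 genes and held Lce1m alone. Lce1m was at least 1421-fold higher in epidermal than in subcutaneous libraries and at least 1041-fold and 927-fold higher than in dermal CCR6+ and Sca1+ libraries, with edgeR adjusted p of 0.00304, 0.0158 and 0.0111. The call against dermal CCR6+ libraries was lost without either of them, with an adjusted p of up to 0.0563. Lce1c was called only against subcutaneous libraries (adjusted p = 0.0461, and up to 0.104 without 1 of them), and Lce1a1, Lce1b, Lce1f and Lce3c in no comparison. Reads of near-identical genes of this family may be split with error by the counting. Among the 6 genes, Lce1a1, Lce1c and Lce1f had expected counts that were not whole.

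Small proline-rich proteins bridge other envelope proteins. Sprr1a (chr3:92483952-92485895) did not follow the rest: it stood at 36.0, 23.8 and 32.5 TPM in epidermal, 12.4 and 14.2 in dermal CCR6+, 19.0 and 0 in dermal Sca1+ and 46.4, 9.64 and 2.58 TPM in subcutaneous libraries. The groups overlapped, with the highest value in a subcutaneous library, and no comparison was called. Sprr1b had 8 counts (1.07 TPM) in dermal Sca1+ replicate 1 and none elsewhere. Sprr2d had no count in any library.

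Filaggrin and its relatives bind keratin filaments and are later broken down into the moisturising acids of the surface. Flg2 stood at 17.4, 75.8 and 38.4 TPM in epidermal libraries, at 0.24 TPM in dermal CCR6+ replicate 1, and at 0 in all others. Asprv1, a protease that trims profilaggrin, stood at 49.0, 158 and 251 TPM in epidermal libraries, against 6.53 and 1.90 in dermal CCR6+, 6.46 and 0 in dermal Sca1+ and 0.8, 0.53 and 0 TPM in subcutaneous libraries. Hal, which turns histidine into urocanic acid, stood at 29.9, 94.0 and 104 TPM in epidermal libraries, against 3.04 and 1.82 in dermal CCR6+, 0.88 and 0 in dermal Sca1+ and 0, 0.03 and 0 TPM in subcutaneous libraries. Epidermal libraries did not overlap with any others for these 3 genes, and dermal CCR6+ libraries exceeded subcutaneous ones for Asprv1 and Hal. All 6 genes of the group were called higher in epidermal than in subcutaneous libraries, Flg2 by at least 757-fold. The family's lower members were near or at 0 outside the epidermis. Flg averaged 13.3 ± 7.54 TPM in epidermal libraries (SD, n = 3) with no dermal count. Hrnr (hornerin) averaged 1.78 ± 0.874 TPM there, with no count elsewhere. Casp14, a caspase of filaggrin breakdown, averaged 17.9 ± 7.21 TPM in epidermal libraries and reached 1.37 TPM in a dermal one.

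Transglutaminases, the cross-linking enzymes, were the members least like the rest. Tgm5 (chr2:121046111-121085841, minus strand) stood at 4.58, 3.45 and 7.67 TPM in epidermal, 20.1 and 12.8 in dermal CCR6+, 31.8 and 45.8 in dermal Sca1+ and 0 TPM in all 3 subcutaneous libraries. The 4 groups did not overlap, with the dermal Sca1+ libraries highest and the subcutaneous ones lowest. Tgm5 was lower in epidermal than in dermal Sca1+ libraries (log2 fold change -2.96 ± 0.448, SE, edgeR adjusted p = 0.0038), and the difference from dermal CCR6+ libraries was not called (-1.75 ± 0.438, adjusted p = 0.0557). It was at least 136-fold higher in epidermal, 459-fold in dermal CCR6+ and 1057-fold in dermal Sca1+ than in subcutaneous libraries, each against 3 counts in the subcutaneous group. These calls held with each library left out in turn. Basal keratinocyte marker sums were, like Tgm5, lowest in subcutaneous libraries, and overlapped between epidermal and dermal ones. Over the 10 basal markers, the median log2 fold change was 0.27 in epidermal over dermal Sca1+ libraries, against 0.00 over all tested genes. edgeR called none of them there, beside 2.75% of all tested genes higher and 8.66% lower. Single markers differed. Lamb3 stood at 10.6 to 17.7 TPM in epidermal libraries, against 29.2 and 30.7 TPM in dermal Sca1+ libraries, its highest group. The mean of the 4 dermal libraries was 46.4% of the epidermal mean for Krt5, 50.8% for Krt14 and 86.8% for Krt15. The 11 hair follicle markers summed to 128 to 223 TPM in epidermal, 113 to 206 in dermal CCR6+, 211 and 221 in dermal Sca1+ and 21.9 to 73.8 TPM in subcutaneous libraries. Over the 10 tested, their median log2 fold change with genes at their bound was -2.94 in epidermal over dermal Sca1+ and 2.53 in dermal Sca1+ over subcutaneous libraries. Over all tested genes these medians were 0.00 and -0.03. In the first comparison edgeR called none of the 10, beside 2.75% of all tested genes higher and 8.66% lower. In the second it called only Krt17 and Krt79, both higher, beside 1.21% of all tested genes. Among lists of non-epithelial cells, edgeR called 6 of 10 ILC and 6 of 6 fibroblast markers lower in epidermal than in dermal Sca1+ libraries. It also called lower 4 of 6 mast cell, 7 of 8 macrophage and dendritic cell, 4 of 7 Langerhans cell and 1 of 5 tested melanocyte markers. None of 9 dendritic epidermal T cell markers was called. No marker of these lists was called higher, beside the same 2.75% higher and 8.66% lower. The part of other cell types in the Tgm5 level was not tested.

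Tgm1 (chr14:55700009-55713926, minus strand), the main transglutaminase of the epidermis, stood at 3.34, 3.82 and 9.60 TPM in epidermal, 0.15 and 0 in dermal CCR6+, 0.03 and 1.76 in dermal Sca1+ and 20.5, 4.43 and 4.53 TPM in subcutaneous libraries. Epidermal and subcutaneous libraries overlapped, and every one of them exceeded every dermal library. Tgm1 was called lower in dermal CCR6+ than in subcutaneous libraries (log2 fold change -6.93 ± 1.77, edgeR adjusted p = 0.0414). That call was lost without epidermal replicate 2 or 3, either CCR6+ library or any 1 subcutaneous library, with an adjusted p of up to 0.224. The 14 markers of simple and glandular epithelium, such as Krt8, Krt18 and Krt19, summed to 28.4 to 34.2 TPM in epidermal, 33.9 to 78.4 TPM in dermal and 4931, 1664 and 1996 TPM in subcutaneous replicates 1 to 3. The subcutaneous library highest in them was also the one highest in Tgm1, and their part in its level was not tested. An antisense gene overlaps Tgm1, and the libraries do not mark strand. Tgm3 was near 0 throughout, at 0.06, 0.14 and 0.25 TPM in epidermal, 0.34 and 0.06 in dermal CCR6+, 0 and 0.13 in dermal Sca1+ and 0 TPM in all subcutaneous libraries, and was not called in any comparison.

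Corneodesmosomes hold the dead cells together until they are cut. Cdsn (corneodesmosin) stood at 27.4, 111 and 103 TPM in epidermal libraries, against 2.31 and 2.07 in dermal CCR6+, 5.26 and 0.04 in dermal Sca1+ and 0.07, 0 and 0 TPM in subcutaneous libraries. Dsg1a (a desmoglein) stood at 36.8, 87.0 and 84.5 TPM in epidermal libraries, against 5.06 and 5.95 in dermal CCR6+, 3.46 and 2.47 in dermal Sca1+ and 0, 0.59 and 0 TPM in subcutaneous libraries. Dsc1 (a desmocollin) stood at 10.4, 12.4 and 27.6 TPM in epidermal libraries, against 0 and 2.35 in dermal CCR6+, 0.55 and 0 in dermal Sca1+ and 0.67, 0.36 and 0 TPM in subcutaneous libraries. Epidermal libraries lay above all others for the 3 genes. Dermal libraries lay between the other 2 layers without overlap for Dsg1a, and also for Dsg1b, at 0.02 to 1.08 TPM in dermal and 0 TPM in subcutaneous libraries. All 4 genes of the group, with Dsg1b at 7.91 ± 1.30 TPM in epidermal libraries (SD, n = 3), were called higher in epidermal than in subcutaneous libraries. Dsg1a was 8.25 ± 1.13 higher on the log2 scale (edgeR adjusted p = 0.000572). The Dsc1 call was also lost with DESeq2 and with both replicate blocks. Dsg1a and Dsg1b are near copies, and their reads may be split with error.

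Among the proteases of shedding, Klk5 and Klk7 followed the set and Klk8 did not. Klk5 stood at 53.2, 160.2 and 145 TPM in epidermal libraries, against 15.6 and 20.2 in dermal CCR6+, 15.5 and 0 in dermal Sca1+ and 0, 0.08 and 0 TPM in subcutaneous libraries. Klk7 stood at 43.5, 167 and 168 TPM in epidermal libraries, against 10 and 4.76 in dermal CCR6+, 1.86 and 3.61 in dermal Sca1+ and 0, 0 and 0.05 TPM in subcutaneous libraries. For Klk7 the 4 groups did not overlap, while for Klk5 dermal Sca1+ replicate 2 was at 0 with the subcutaneous libraries. Klk8 (chr7:43797577-43803826), next to them on chromosome 7, stood at 144, 262 and 181 TPM in epidermal, 188 and 161 in dermal CCR6+, 226 and 231 in dermal Sca1+ and 88.5, 101 and 159 TPM in subcutaneous libraries. Its range in each group overlapped that of at least 1 other, and it was called in none of the 6 comparisons. The epidermal to subcutaneous log2 fold change was 0.65 ± 0.341 for Klk8 (edgeR adjusted p = 0.215), against 12.38 ± 1.05 for Klk7 (adjusted p = 3.14e-05). A gene on the other strand overlaps Klk8 by 382 bases and was at no more than 2.22 TPM.

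The inhibitors, like Klk5 and Klk7, were highest in epidermal libraries. Spink5 averaged 40.5 ± 22.1 TPM in epidermal (SD, n = 3), 1.20 ± 0.573 in dermal CCR6+ (n = 2), 0.695 ± 0.686 in dermal Sca1+ (n = 2) and 0.00667 ± 0.0115 TPM in subcutaneous libraries (n = 3). Serpinb7, a serine protease inhibitor whose loss thickens human palm and sole skin, averaged 94.1 ± 53.0 TPM in epidermal libraries and reached 1.98 TPM in a subcutaneous one. Serpina12 (vaspin, an inhibitor of kallikreins) averaged 24.0 ± 16.4 TPM in epidermal libraries and had 1 count in all other libraries together. All 3 were called higher in epidermal than in subcutaneous and in dermal CCR6+ libraries. The CCR6+ call of Spink5 was lost without dermal CCR6+ replicate 1 (adjusted p = 0.0586), and that of Serpinb7 without epidermal replicate 2 or 3 or either CCR6+ library (up to 0.181). With DESeq2 the Serpinb7 call against subcutaneous libraries was lost. Against dermal Sca1+ libraries Spink5 and Serpina12 were called, and Serpinb7 was not (edgeR adjusted p = 0.0552).

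**Figure D3:**
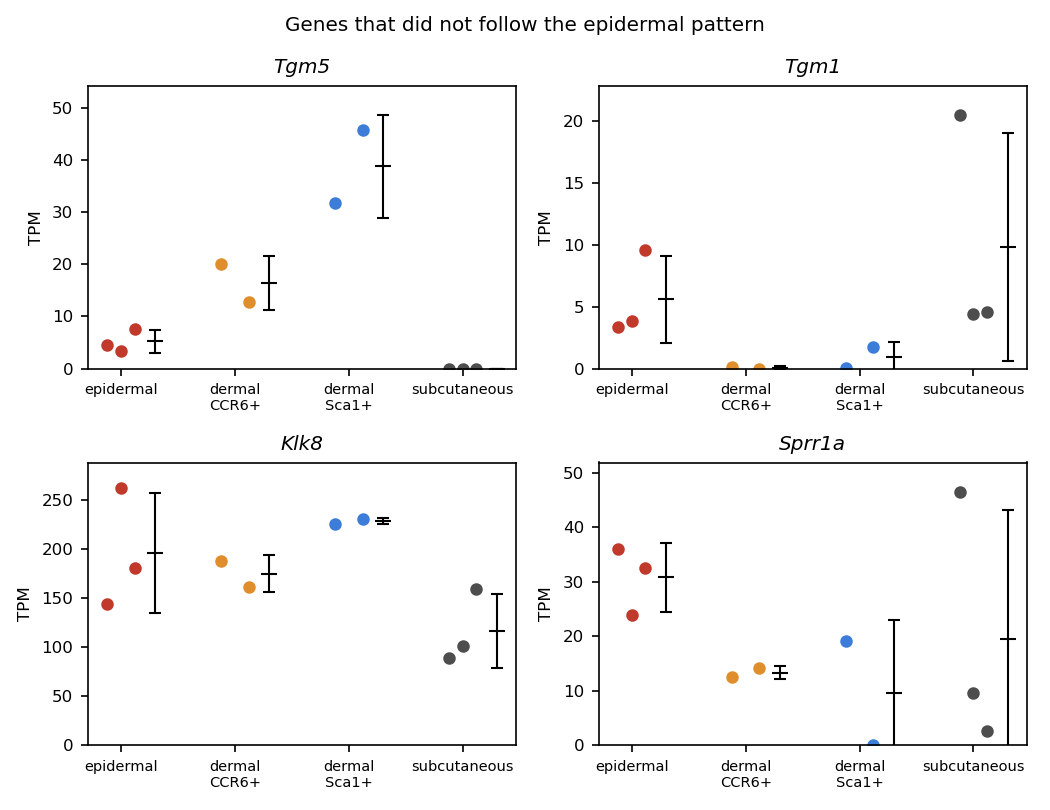
TPM of Tgm5, Tgm1, Klk8 and Sprr1a in each library (points) with the group mean and SD beside them (bars; n = 3, 2, 2 and 3). Tgm5 is highest in the dermal Sca1+ libraries and at 0 in the subcutaneous ones, and the subcutaneous point far above its group is replicate 1 in both Tgm1 (20.5 TPM) and Sprr1a (46.4 TPM).

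The remaining 7 genes, products of late keratinocytes, held most of the set's TPM in epidermal and dermal libraries, but 11.5, 12.6 and 10.8 TPM of it in subcutaneous ones. They were all called higher in epidermal than in subcutaneous libraries. Krtdap (a secreted protein of differentiating keratinocytes; chr7:30787896-30791097) stood at 2619.9, 14436 and 14044 TPM in epidermal libraries, against 571 and 766 in dermal CCR6+, 382 and 455 in dermal Sca1+ and 2.33, 4.53 and 7.28 TPM in subcutaneous libraries. Calm4, a calmodulin-like protein of mouse skin, stood at 303, 1706 and 1379.6 TPM in epidermal libraries, against 67.4 and 104 in dermal CCR6+, 63.2 and 64.2 in dermal Sca1+ and 0, 0.48 and 0.13 TPM in subcutaneous libraries. Dmkn (dermokine, a secreted protein) stood at 641, 1879 and 1575 TPM in epidermal libraries, against 267 and 254 in dermal CCR6+, 330 and 305 in dermal Sca1+ and 8.23, 2.64 and 2.71 TPM in subcutaneous libraries. Epidermal, dermal and subcutaneous libraries did not overlap for any of the 3. Krtdap was 11.13 ± 0.962 higher on the log2 scale in epidermal (edgeR adjusted p = 3.53e-05), 7.13 ± 0.878 in dermal CCR6+ (adjusted p = 0.00109) and 6.52 ± 0.867 in dermal Sca1+ (adjusted p = 0.00359) than in subcutaneous libraries. Sbsn (suprabasin), Them5 and Psapl1 also lay between the layers without overlap, at dermal levels of 35.5 to 45.8, 3.64 to 27.6 and 36.7 to 57.4 TPM. Wfdc21 did not: it averaged 525 ± 402 TPM in epidermal libraries and was at no more than 0.68 TPM in any dermal or subcutaneous one. Genes on the same strand overlap all 917 bases of Calm4 and 4656 bases of Sbsn, and Psapl1 lies inside Sorcs2 on the other strand.

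To show the start regions of members with unlike patterns, the 250 bases before the RefSeq start are given for 3 genes with the epidermal pattern, of which Krtdap alone was also high in the dermis, and for the 2 exceptions Tgm5 and Klk8. Sequences are from RefSeq on GRCm38.p6 (the assembly of mm10), 5′ to 3′ on the gene's strand, with capitals for 2 motifs searched on both strands: the AP-1 site TGANTCA and the TATA box TATAAA. Matches of the 2 motifs do not overlap in these windows. For Krtdap and Lce1m this start differs by a few bases from the GENCODE one, so that the Krtdap window runs into the gene as placed above.
Lor (chr3:92083143-92083392, minus strand): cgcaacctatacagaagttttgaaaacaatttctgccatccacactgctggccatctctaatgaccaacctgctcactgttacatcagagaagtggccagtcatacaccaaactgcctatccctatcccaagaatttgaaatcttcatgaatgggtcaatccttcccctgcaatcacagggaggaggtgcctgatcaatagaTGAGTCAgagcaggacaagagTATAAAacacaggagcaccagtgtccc
Lce1m (chr3:93019062-93019311, minus strand): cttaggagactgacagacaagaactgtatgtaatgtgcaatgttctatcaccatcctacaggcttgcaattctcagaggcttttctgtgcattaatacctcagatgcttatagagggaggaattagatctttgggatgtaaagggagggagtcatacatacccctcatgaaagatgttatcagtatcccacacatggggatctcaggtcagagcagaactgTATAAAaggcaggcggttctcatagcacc
Krtdap (chr7:30787655-30787904, plus strand): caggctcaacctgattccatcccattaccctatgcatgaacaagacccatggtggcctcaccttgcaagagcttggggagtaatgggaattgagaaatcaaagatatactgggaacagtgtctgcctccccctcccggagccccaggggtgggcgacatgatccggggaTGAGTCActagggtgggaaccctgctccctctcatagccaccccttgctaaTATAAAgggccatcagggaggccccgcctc
Tgm5 (chr2:121085842-121086091, minus strand): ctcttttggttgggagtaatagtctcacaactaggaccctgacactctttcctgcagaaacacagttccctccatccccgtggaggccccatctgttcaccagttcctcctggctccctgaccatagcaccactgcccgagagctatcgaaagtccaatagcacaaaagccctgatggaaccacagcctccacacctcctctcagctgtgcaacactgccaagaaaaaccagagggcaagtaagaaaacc
Klk8 (chr7:43797327-43797576, plus strand): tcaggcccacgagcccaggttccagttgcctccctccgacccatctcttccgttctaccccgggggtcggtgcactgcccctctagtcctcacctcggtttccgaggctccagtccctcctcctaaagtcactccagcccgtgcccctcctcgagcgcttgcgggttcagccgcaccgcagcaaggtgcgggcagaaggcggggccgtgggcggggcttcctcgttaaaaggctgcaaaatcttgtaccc
Lor and Krtdap carry both motifs, with the TATA box starting 27 and 30 bases before the start and the AP-1 site 48 and 81 bases before it. Lce1m has the TATA box, 29 bases before the start, and these letters of neither motif occur in the windows of Tgm5 and Klk8. Of the 32 members matched in the table, 13 had the AP-1 letters and 12 the TATA letters in such a window, beside 6.75% and 12.4% of all 32851 windows. Members can have several windows. The letters were not confined to the epidermal pattern: Sprr1a, Sprr1b and Sprr2d had both motifs, and Tgm3 had the TATA box. Most of the matched members lacked each motif. A match is a description of the letters and not of a site in use.

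The dermal libraries did not hold a uniform fraction of the epidermal levels. As a percentage of the epidermal mean, the mean of the 4 dermal libraries was 5.24% for Krtdap, 6.60% for Calm4, 21.2% for Dmkn and 32.5% for Psapl1, beside 6.5% for the suprabasal keratin Krt10, 12.6% for Krt1 and 50.8% for the basal keratin Krt14. It was 0.0256% for Lor, 0.0595% for Crct1 and 0.0543% for Wfdc21. The members so close to 0 in the dermis lay mostly, but not all, in one stretch of the genome. A total of 16 members lies within chr3:92080271-93333570, the epidermal differentiation complex, a cluster of envelope genes. Of the 14 of these with an epidermal level, 13 had a dermal mean under 1% of it, with a median of 0% and Sprr1a, at 37.1%, as the exception. Of the 26 members elsewhere, 4 were under 1% (Cnfn, Serpinb7, Serpina12 and Wfdc21), and their median was 4.78%. Over all tested genes with an epidermal level, 1.59% were under 1% and the median was 91.4%. Depth limits this for the weakest genes: the epidermal levels of Lce3c, Lce1f and Lce1b were known only to be at least 9.45-fold, 24.8-fold and 27.6-fold above those of dermal CCR6+ libraries, too little to resolve 1%. Against a single dermal sort, the bound was also too low for 1% in Lce1a1, at 97.4-fold and 86.7-fold above dermal CCR6+ and Sca1+ libraries. So it was in Flg, at 92.1-fold above dermal Sca1+ libraries. A bound against the 4 dermal libraries together, on which the 1% share rests, would be higher and was not computed. The lower end of the counting interval for Ivl was 98.7-fold against dermal Sca1+ libraries. For Lor, Lce1m, Kprp and Crct1 the bounds against dermal CCR6+ libraries were 1508-fold, 1041-fold, 972-fold and 772-fold. The contrast between cluster and other members was noticed in these data and was not tested.

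**Figure D4:**
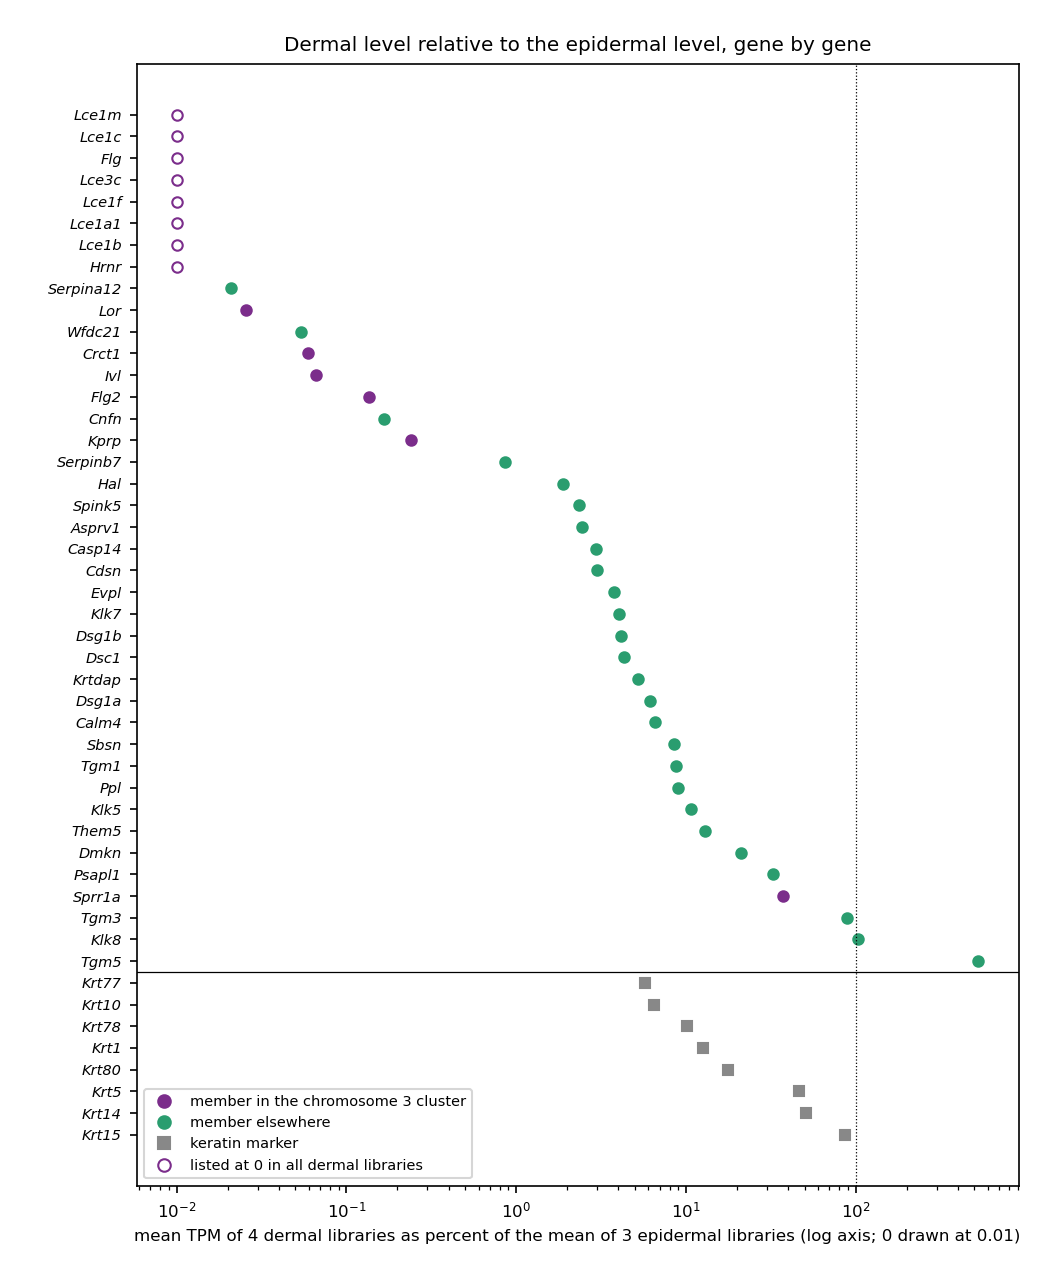
Mean TPM of the 4 dermal libraries as a percentage of the mean of the 3 epidermal libraries (log axis, 0 drawn at 0.01 as open circles) for the 40 members with an epidermal level and 8 keratin markers. Cluster members other than Sprr1a (37.1%) lie under 1%, 19 of the 26 other members lie between 1% and 40%, and Tgm5 lies at 528%.

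The epidermal libraries also differed among themselves. Epidermal replicate 1 stood at a median of 31.1% of the mean of replicates 2 and 3 over 40 members, 32 of which were under 50%, whereas over all tested genes the median was 118% and 14.4% of genes were under 50%. The 5 late cornified envelope genes other than Lce1m were at 0 in replicate 1, Wfdc21 was at 8.14%, Crct1 at 10.6% and Krtdap at 18.4%. Ivl (84.5%), Ppl (90.4%), Sprr1a (128%) and Evpl (155%) were not reduced in this way. Keratin markers were lower there too, Krt10 apart: Krt10 was at 101%, Krt80 at 74.8%, Krt78 at 70.1%, Krt5 at 69.9%, Krt77 at 52.6%, Krt15 at 49.1%, Krt14 at 46.8% and Krt1 at 44.2%. The sums of suprabasal and of basal markers, at 1352 and 1203 TPM, were the lowest of the epidermal libraries, and their part in the low levels was not tested. Without replicate 1, the numbers of members called higher in epidermal libraries were 34 against subcutaneous, 25 against dermal CCR6+ and 26 against dermal Sca1+ libraries, and no call of the members described in full was lost. All genes called higher numbered 1065, 198 and 459 in that refit, against 1113, 160 and 445 with all libraries.

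**Figure D5:**
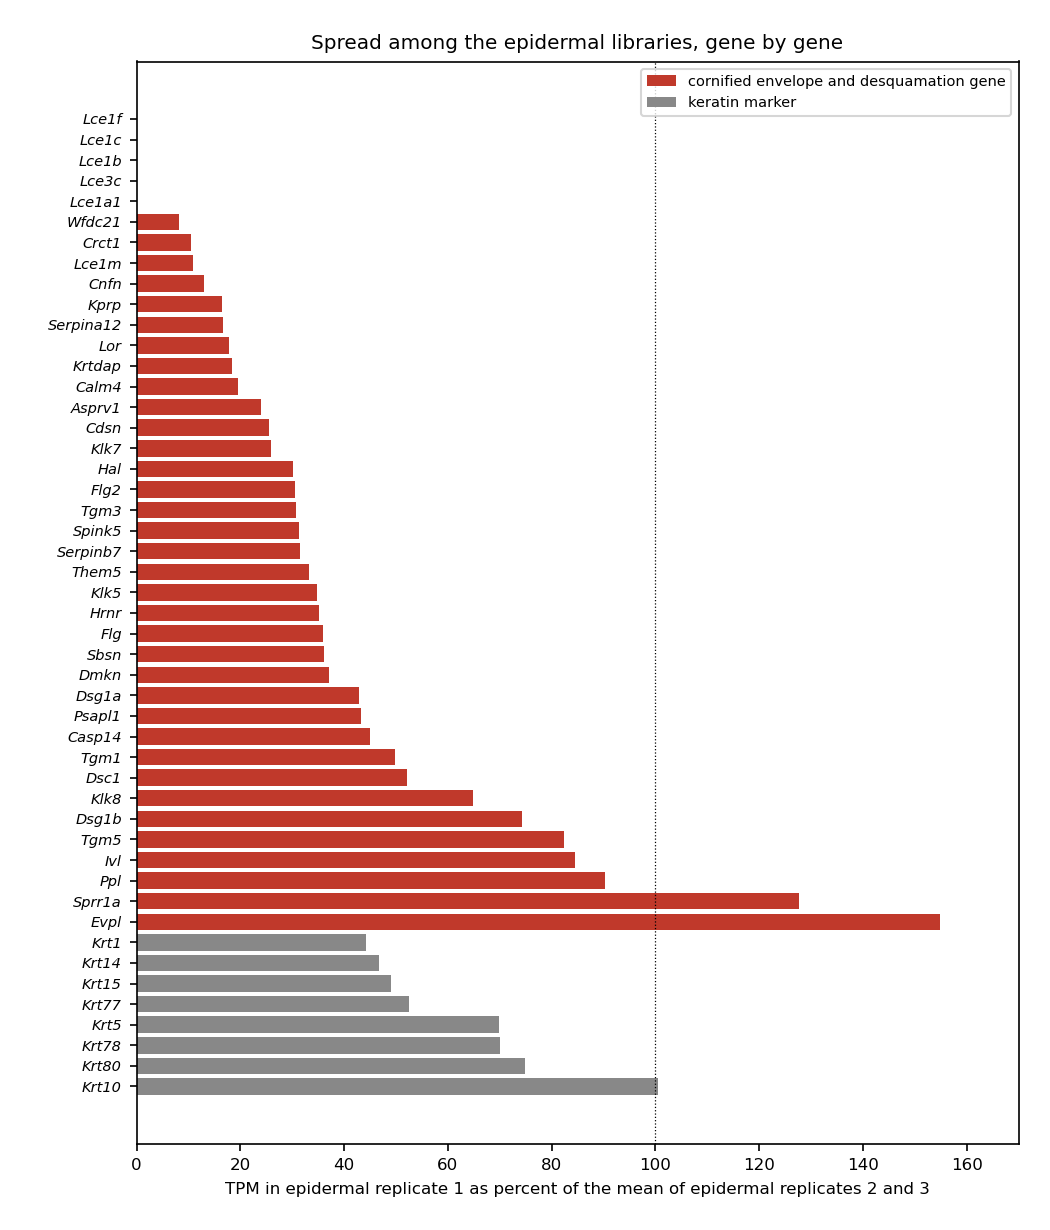
TPM in epidermal replicate 1 as a percentage of the mean of epidermal replicates 2 and 3, for the 40 members with an epidermal level (red) and 8 keratin markers (grey), with 100% dotted. Of the members, 5 are at 0, 27 lie above 0 and under 50%, and only Sprr1a and Evpl exceed 100%.

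Other genes of the pathway were counted in 5 lists of 120 genes. Of 37 other envelope precursors, 15 could be tested. By edgeR, 9 were higher and none lower in epidermal than in subcutaneous libraries, beside 6.87% and 13.3% of all tested genes. Their median log2 fold change was 5.47 with genes at their bound, against -0.02 over all tested genes. Of the 15, 9 had no subcutaneous count. Some, such as Lce1a2, were at 0 TPM outside the epidermis and passed the filter through the epidermal libraries alone. The count and median thus describe the list and support nothing further. Cst6 (cystatin M/E, an inhibitor of envelope-processing cathepsins) stood at 37.6, 41.0 and 44.2 TPM in epidermal libraries, against 9.06 and 6.80 in dermal CCR6+, 8.25 and 4.81 in dermal Sca1+ and 0.27, 0.02 and 0.02 TPM in subcutaneous libraries. Its epidermal libraries lay within a narrow range, without a low replicate 1. The sum of the list did have a low epidermal replicate 1, at 99.6 TPM, against 344 and 608 TPM in replicates 2 and 3. Of 10 tested desmosome genes outside the set, 6 were higher and none lower, with a median of 2.81. Perp, a desmosome membrane protein, averaged 781 ± 419.6 TPM in epidermal and 33.2 ± 11.8 TPM in subcutaneous libraries (SD, n = 3 each). Of 20 tested genes of the lipid envelope, 11 were higher and 2 lower, with a median of 4.08. The lower ones were Ugcg (glucosylceramide synthase, log2 fold change -2.27 ± 0.275, edgeR adjusted p = 0.000258) and Asah1 (acid ceramidase, -1.15 ± 0.209, adjusted p = 0.00322).

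Of 17 tested proteases and inhibitors outside the set, 4 were higher in epidermal than in subcutaneous libraries and 3 lower, beside 6.87% and 13.3% of all tested genes, with a median of 1.19. The lower ones were the lysosomal proteases Ctsl (log2 fold change -2.08 ± 0.368, edgeR adjusted p = 0.00274) and Ctsd (-0.98 ± 0.17, adjusted p = 0.00246) and the proprotein convertase Furin (-1.37 ± 0.372, adjusted p = 0.0259), genes that many cell types use. Of 20 transcription factors known from keratinocyte differentiation, 6 were higher and 4 lower, beside the same 6.87% and 13.3%, with a median of 1.33. Klf4, a factor of skin barrier formation that leukocytes also express, was lower (-1.36 ± 0.34, adjusted p = 0.018), as was Cebpb (-1.37 ± 0.236, adjusted p = 0.00238). Elf3, an epithelial factor, stood at 0 TPM in all epidermal libraries, against 88.2, 17.6 and 21.9 TPM in subcutaneous libraries. The 8 macrophage and dendritic cell markers summed to 1.3 to 4.66 TPM in epidermal and 3699 to 6932 TPM in subcutaneous libraries. Their part in the genes called lower was not tested.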

How the data were processed

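Column-purified RNA went through an ultra-low-input cDNA kit and Nextera XT, per the labels' protocols. Such libraries carry no strand information. The submitters' processing notes name Trimmomatic, STAR, RSEM and the mm10 build. Of their settings, annotation release and strand option, nothing is given in the sources used here. The expected counts are the deposited RSEM estimates per gene, per the file headers, with ambiguous reads shared between genes, so that 7.2% to 8.39% of values were not whole. The TPM values, per the file headers, were deposited by the authors as RSEM output and are scaled by effective length. FPKM was not used.

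Samples were grouped by title. For replicate 2 of both dermal sorts the marker is in the title and not in the cell type label. The series speaks of triplicates, and 2 libraries of each dermal sort were analysed here. IDs were matched to GENCODE M21 (47224 of 47643 with a symbol), whose coordinates are given. The members and lists were chosen with earlier results of these data known. Values in every library are given for the 3 members of each role with the highest mean TPM, those not highest in epidermal libraries and those called against the trend. Of the pathway lists, the 3 genes with the highest mean TPM and those called lower in epidermal than in subcutaneous libraries may be named. The values of 1 such gene are not reported here.

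Expected counts were rounded, filtered with filterByExpr (count minimum 10, 16208 genes kept) and fitted with edgeR 4.0.16 (R 4.3.3; TMM, quasi-likelihood, two-sided, 1 model over 10 libraries, biological coefficient of variation 0.62). Calls are at a Benjamini-Hochberg adjusted p under 0.05. The SE is the absolute log2 fold change over the square root of F. Folds against a group with no count are lower bounds against 3 counts over the group and cover counting error only. Fits were tested on simulated data for epidermal over subcutaneous libraries only, with a smaller spread between libraries than in the data. The alternatives were RLE size factors, DESeq2 1.42.0, limma 3.58.1 on log2(TPM + 1) and log2(TPM + 0.1), no filter beyond 1 count, 5 CPM in 2 libraries, robust dispersions, only the 2 groups compared, replicate blocks and each library left out.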

Additional observations from a re-analysis of the deposited data

How the results depend on the processing

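Over 20 alternatives, the number of members called higher in epidermal than in subcutaneous libraries was 28 to 37, and 28 to 34 with 1 library left out, beside 31. All genes called higher there numbered 698 to 2051, and 698 to 1065 with 1 library left out, beside 1113. Against dermal CCR6+ libraries the members called higher numbered 21, and 10 to 25 with 1 library left out. They numbered 33 with no filter on low counts and 13 with a replicate block by title number. All genes called higher there numbered 160, and 59 to 198, 496 and 72 in the same order. Against dermal Sca1+ libraries the members called higher numbered 23, and 15 to 26 with 1 library left out, beside 445 and 243 to 459 of all genes. The number of members called lower against dermal CCR6+ libraries was 0, and 1 by DESeq2, with no filter and with the 5 CPM filter, and 0 to 1 with 1 library left out. All genes called lower there numbered 841, and 1416, 1532, 952 and 573 to 883 in the same order. Between dermal CCR6+ and Sca1+ libraries, no filter gave 2 higher and 3 lower, in place of 0 and 0. In dermal CCR6+ over subcutaneous libraries, the 1 lower call was 2 with no filter, 0 under both replicate blocks (by title number and by the numbers in the deposited names) and 0 to 1 with 1 library left out, and in dermal Sca1+ over subcutaneous libraries no filter gave 17 higher in place of 9 and 1 lower in place of 0. Calls over all genes changed as well. Between the dermal groups, no filter gave 264 higher and 383 lower, in place of 48 and 56. The 601 lower calls in dermal CCR6+ over subcutaneous libraries were 1357 with no filter. They were 450 and 488 under the title and name blocks, and 192 to 701 with 1 library left out. In dermal Sca1+ over subcutaneous libraries, no filter gave 523 higher in place of 196 and 805 lower in place of 161. The cause was not tested. The other changes in counts stayed within 1.5 times. Of 1117 alternative values for the 56 calls of members described in full, 1025 kept their call, 92 lost it and none changed direction. The block by title number lost 11 of the 56. Between libraries of the same title number, correlations of the deviations from group means lay between -0.038 and 0.114. In a dermal group of 2 libraries these deviations mirror each other (correlation -1). The values therefore cannot decide whether the numbers pair the samples. With 2 libraries in each dermal group and levels near 0 outside the epidermis, depth limits folds to lower bounds for many members.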
